A study of Mus musculus with 20 samples.

Results

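The Hox genes are the 39 homeobox genes of the Hoxa, Hoxb, Hoxc and Hoxd clusters, taken as every row of the count table whose symbol is one of these letters after Hox and a number, out of 43346 genes in all. The Hoxa cluster had 11 genes on chromosome 6, Hoxb 10 genes on chromosome 11, Hoxc 9 genes on chromosome 15 and Hoxd 9 genes on chromosome 2, in mm10 coordinates. Values and counts are given for 38 of them, 10 of the Hoxa genes and all genes of the other clusters. RNA was sequenced from 20 spontaneous breast tumors of female [BALB/c-neuT x FVB/J] F1 mice, 1 tumor from each mouse. All mice inherited the neuT transgene, an activated rat Her2/neu oncogene, from their BALB/c father, so that no tumor or tissue without the transgene served as a control, and each library came from a small frozen piece of a late-stage tumor that holds stroma, vessels and leukocytes beside tumor cells. The sample titles divide the tumors into 9 labelled Lo and 11 labelled Hi, and the meaning of these words and the age of each mouse are not given in the sources used here.

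Hox genes encode homeodomain transcription factors that set positional identity along the body axis of the embryo. In each cluster the genes lie in the order of their paralog numbers, low numbers at the anterior end and high numbers at the posterior end, and in the embryo they are switched on in that order, early and anterior genes first. Retinoic acid induces the anterior genes, Cdx factors act on the central and posterior ones, Polycomb complexes keep the clusters silent and Trithorax proteins keep them active. The proteins bind DNA together with TALE homeodomain cofactors of the Pbx, Meis and Pknox families. Adult tissues keep part of this pattern, and in the mammary gland several Hox genes are active in epithelium or in stroma.

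Total counts ran from 38765682 to 65465755 per tumor, and the ribosomal RNA locus took 6.29% to 27.7% of them. The 38 Hox genes held few reads, 647 in the lowest tumor, 2142.5 in the median over tumors and 7078 in the highest, and a count of 0 allowed up to 3 counts. Markers of luminal epithelium were abundant in every tumor, with a summed level of 3002 to 4727 CPM (counts scaled to library size) over 11 genes, led by the keratin Krt18 at a median of 559 RPKM (reads scaled to gene length and library size). All 11 were detected. Fibroblast markers summed to 615 to 2342 CPM over 10 genes, endothelial markers to 76.9 to 197 CPM over 10 genes and leukocyte markers to 319 to 714 CPM over 8 genes. In whole tumor pieces, fewer cells of a type and less RNA per cell cannot be told apart.

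Promoter sequences from RefSeq on GRCm38.p6, 300 bases around a transcription start each, were at hand for 22 of the 38 Hox genes as 24 promoters. Of these, 4 are printed because their genes moved differently across the tumors, as described further on. Hoxa5 and Hoxa7 were high in the same 4 tumors, and Hoxb4 belonged to the most abundant stretch of the series. Hoxa9, on the posterior side of Hoxa7, had only 2 and 4 counts in 2 of the 4 tumors. Capitals mark CG dinucleotides, the sites of DNA methylation. Each runs 5′ to 3′ on the strand of its gene.
Hoxa5, chr6:52204538-52204837, minus strand: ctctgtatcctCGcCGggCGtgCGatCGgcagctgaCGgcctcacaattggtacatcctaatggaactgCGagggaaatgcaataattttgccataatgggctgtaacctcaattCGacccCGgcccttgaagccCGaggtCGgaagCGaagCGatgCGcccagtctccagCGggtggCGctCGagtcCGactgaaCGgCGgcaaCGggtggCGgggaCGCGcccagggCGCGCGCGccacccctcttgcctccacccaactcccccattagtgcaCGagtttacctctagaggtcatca
Hoxa7, chr6:52218524-52218823, minus strand: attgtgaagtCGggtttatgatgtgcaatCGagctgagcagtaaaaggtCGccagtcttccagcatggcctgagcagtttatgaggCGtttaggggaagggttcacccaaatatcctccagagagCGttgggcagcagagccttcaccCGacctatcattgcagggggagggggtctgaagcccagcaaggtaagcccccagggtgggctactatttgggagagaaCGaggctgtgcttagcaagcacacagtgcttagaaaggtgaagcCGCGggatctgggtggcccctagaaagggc
Hoxa9, chr6:52227321-52227620, minus strand: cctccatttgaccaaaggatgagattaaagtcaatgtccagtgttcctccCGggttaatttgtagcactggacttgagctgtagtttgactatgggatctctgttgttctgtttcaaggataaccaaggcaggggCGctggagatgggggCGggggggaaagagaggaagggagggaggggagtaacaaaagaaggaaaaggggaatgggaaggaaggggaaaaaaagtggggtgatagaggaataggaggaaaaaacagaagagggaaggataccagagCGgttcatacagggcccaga
Hoxb4, chr11:96318017-96318316, plus strand: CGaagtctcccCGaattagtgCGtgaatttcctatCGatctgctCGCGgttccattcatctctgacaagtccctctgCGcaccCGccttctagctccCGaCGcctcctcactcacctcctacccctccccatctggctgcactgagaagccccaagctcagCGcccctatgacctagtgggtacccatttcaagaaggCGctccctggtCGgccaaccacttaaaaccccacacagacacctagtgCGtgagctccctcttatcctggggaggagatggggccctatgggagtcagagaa
The Hoxa5 promoter held 29 CG dinucleotides, 1.02 of the number its base composition predicts. Hoxa7 held 9, a ratio of 0.405, Hoxa9 held 4, a ratio of 0.280, and Hoxb4 held 14, a ratio of 0.593. Thus Hoxa5 and Hoxa7, whose levels moved together, stood far apart in this measure, but their windows lie at unlike places. The Hoxa5 window spans the 5′ end of the counted gene at 52204587. Those of Hoxa7 and Hoxa9 lie inside the counted genes, whose 5′ ends are at 52221854 and 52231089. The median ratio was 0.626 over the 24 Hox promoters and 0.384 over all 32851 promoters of the table. The TATA box letters TATAAA, sought on both strands, lay in 16.7% of the Hox promoters and 13.6% of all. The letters TGATNNAT, to which a Pbx and Hox pair can bind, lay in 16.7% of the Hox promoters and 8.85% of all, and the 4 printed promoters held neither. Letters of both motifs can overlap in part, and a match is only a description of the window.

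The first question was which clusters and positions were expressed. The study counts a gene as expressed from 0.5 on a log2 RPKM scale, used here as a mean of log2(RPKM + 1) over the 20 tumors. By this rule 6 of the 38 Hox genes were expressed, against 38.5% of all genes. These were Hoxa4 and Hoxa5, then Hoxb2, Hoxb3 and Hoxb4, and Hoxd8. No Hoxc gene was among them. The rule takes a mean, and Hoxa4 and Hoxa5 were far higher in 4 tumors, described further on, than in the rest. In the other 16 their medians were 0.180 and 0.383 RPKM. Over all 20 tumors the median of Hoxa4, 0.242 RPKM, was below those of Hoxc6, Hoxb7 and Hoxc8, at 0.319, 0.293 and 0.244. Under this rule the contrast of Hoxa4 with Hoxc thus rests on few tumors. Hoxd8 lay just inside the limit at a mean of 0.50 on the log2 scale, and Hoxa3 just outside at 0.43. Hoxb2, Hoxb3 and Hoxb4 together took 70.9% of the reads of the 38 genes and Hoxa2 to Hoxa7 another 16.7%. Posterior genes, of paralog number 9 and above, took 1.82%, and those of 10 and above 0.531%.

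**Figure D1:**
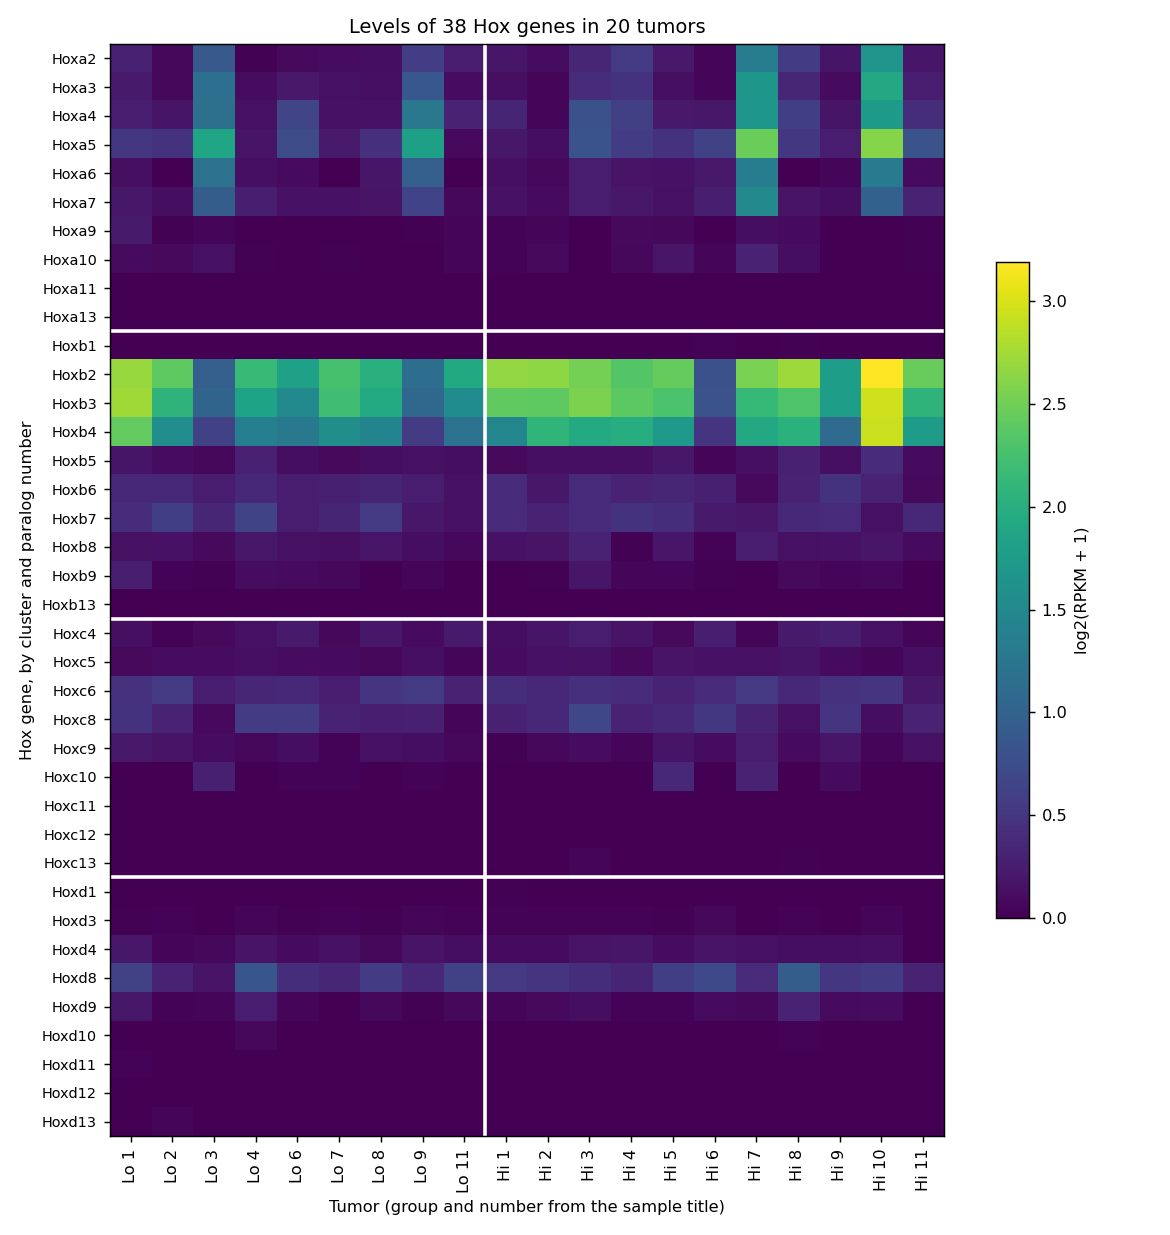
Level of each of 38 Hox genes (rows, by cluster and paralog number) in each of the 20 tumors (columns, 9 Lo then 11 Hi) as log2(RPKM + 1). Hoxb2, Hoxb3 and Hoxb4 form the bright band, Hoxa2 to Hoxa7 are bright in 4 tumors, and the posterior end of every cluster is dark.

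In the Hoxb cluster the level fell sharply between neighbouring genes. Hoxb2, a patterning gene of the hindbrain, had the highest median of all Hox genes, at 0.725 RPKM in the lowest tumor, 4.16 in the median and 8.13 in the highest. Hoxb3 ran from 0.761 over a median of 3.32 to 6.80 RPKM and was above Hoxb2 in Lo 1, Lo 3, Hi 3, Hi 4 and Hi 6. The noncoding gene Hoxb3os covers 52.9% of the exonic bases of Hoxb3 and 27.3% of those of Hoxb2. With the counting of shared bases unknown, the levels of Hoxb2 and Hoxb3, their order and their share of Hox reads are uncertain. Hoxb4, known for its part in blood stem cells, ran from 0.389 over 1.97 to 6.63 RPKM. Directly beside it, Hoxb5 had a median of 0.092 RPKM and never exceeded 0.320, below the lowest value of Hoxb4 in any tumor. Hoxb6 to Hoxb9 had medians of 0.236, 0.293, 0.109 and 0.028 RPKM. At the ends of the cluster, Hoxb1 had at most 2 counts in any tumor and Hoxb13, a gene of the caudal body and prostate, had none. The spreads of Hoxb2 and Hoxb3 over tumors overlapped widely, 3.88 ± 1.80 and 3.31 ± 1.56 RPKM (mean ± SD, n = 20), whereas those of Hoxb4 and Hoxb5 did not touch.

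In the Hoxa cluster Hoxa5 had the highest median, followed by Hoxa4. Hoxa5, which acts in lung and mammary development, ran from 0.056 over a median of 0.431 to 5.13 RPKM. Hoxa4 ran from 0.038 over 0.242 to 2.35 RPKM. Hoxa2, Hoxa3, Hoxa6 and Hoxa7 had medians of 0.155, 0.132, 0.095 and 0.136 RPKM. The posterior genes Hoxa9 and Hoxa10, which act in uterus and limb, had 0 to 45 and 0 to 32 counts. Hoxa11 had no read in any tumor and Hoxa13 had 1 read in all 20 tumors.

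In the Hoxc cluster, 5 of 9 genes had enough reads to be tested, and these were Hoxc4 to Hoxc9, at the anterior end. Hoxc6, a gene of the thoracic region and of mammary epithelium, was highest, from 0.155 over 0.319 to 0.455 RPKM. Hoxc8 ran from 0.037 over 0.244 to 0.595 RPKM. Hoxc4, Hoxc5 and Hoxc9 had medians of 0.104, 0.079 and 0.079 RPKM. Hoxc10 was seen in 7 tumors and not in the other 13. It had 28 counts in Hi 5, 23 in Lo 3 and 19 in Hi 7, then 8 in Hi 9 and 2 in each of Lo 6, Lo 7 and Lo 9. Hoxc11 and Hoxc12 had no read, and Hoxc13 had at most 4 counts.

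In the Hoxd cluster a single gene stood out. Hoxd8 ran from 0.127 in Lo 3 over a median of 0.410 to 0.920 RPKM in Hi 8. Its neighbours were far lower, Hoxd9 at a median of 0.047 and Hoxd4 at 0.090 RPKM. Hoxd3 did not exceed 9 counts. Other genes overlap 62.8% of the exonic bases of Hoxd3 and 52.3% of those of Hoxd4, but 0% of those of Hoxd8 and Hoxd9. How reads on shared bases were counted is not given in the sources used here, so the levels of Hoxd3 and Hoxd4 are uncertain. Hoxd1, Hoxd10, Hoxd11 and Hoxd13 were seen in 1 or 2 tumors at most 5 counts each, and Hoxd12 in none. Over all clusters, 5 genes had no read in any tumor (Hoxa11, Hoxb13, Hoxc11, Hoxc12 and Hoxd12) and 13, these included, stayed under 10 counts in every tumor.

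Of the 38 genes, 19 had enough counts for the models used next (5 of Hoxa, 7 of Hoxb, 5 of Hoxc and 2 of Hoxd). The second question was which of them vary between tumors. The measure was the biological coefficient of variation (CV), the spread between tumors beyond counting noise, and a gene was called variable at 1.5 times the trend of all genes at its level. By this rule 9 of 19 Hox genes were variable, against 7.21% of the 18883 genes tested. All 5 tested Hoxa genes were among them. Hoxa3 had a biological CV of 1.24, 3.89 times the trend, and Hoxa5 of 1.15, 3.40 times. Hoxa2 stood at 2.88, Hoxa4 at 2.70 and Hoxa7 at 2.69 times the trend. In the Hoxb cluster, Hoxb2, Hoxb3 and Hoxb4 stood at 2.35, 2.25 and 2.22 times the trend, while Hoxb5 to Hoxb8 lay between 0.823 and 1.18 times.

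**Figure D2:**
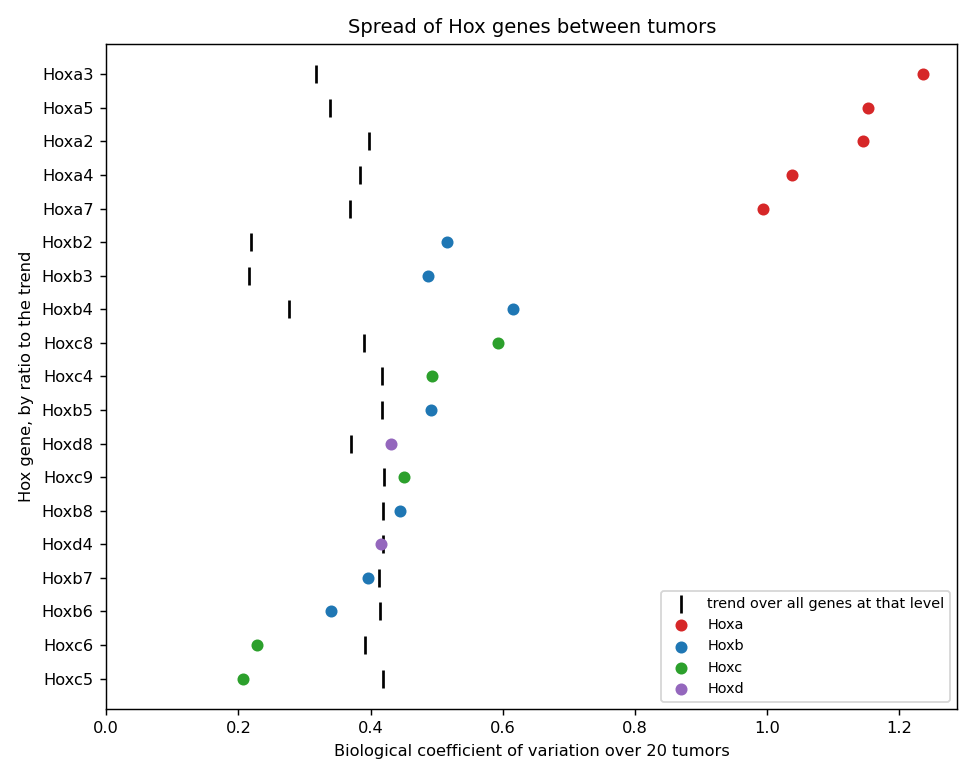
Biological coefficient of variation over the 20 tumors (points, coloured by cluster) and the trend of all genes at the same level (black bars) for the 19 Hox genes tested, ordered by their ratio. The 5 Hoxa genes and Hoxb2, Hoxb3 and Hoxb4 lie well to the right of their bars, and Hoxc5 and Hoxc6 to the left.

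The Hoxc and Hoxd genes were steadier. Hoxc8, at 1.52 times the trend, was the only one called, and it fell to between 1.34 and 1.46 when any 1 of 5 tumors was left out (Hi 3, Hi 10, Lo 3, Lo 6 or Lo 11). Hoxd8 stood at 1.16 times the trend. Hoxc6 had a biological CV of 0.229, 0.585 times the trend, and Hoxc5 of 0.206, 0.492 times. Hoxc6 thus differed only 2.93-fold between its lowest and its highest tumor, compared with 69.3-fold for Hoxa3 and 11.2-fold for Hoxb2.

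The spread of the Hoxa genes came mainly from 4 tumors, Hi 10, Hi 7, Lo 3 and Lo 9, named here after their values were seen and therefore described without a test. Hoxa5 was at 5.13, 4.55, 2.67 and 2.53 RPKM in these tumors and between 0.056 and 0.766 RPKM in the other 16. Hoxa3 was at 2.80, 2.22, 1.24 and 0.815 RPKM, compared with 0.040 to 0.384 in the others. In Hi 10 it reached 21.2 times its median over tumors. Hoxa6, which was too low to be tested, had 46 to 78 counts in the 4 tumors and 0 to 8 in the others. Hoxa2 was at 0.491 RPKM in Lo 9, the lowest of the 4, close to 0.463 in the highest of the others. Hoxa4 and Hoxa7 were at least at 1.26 and 0.554 RPKM in the 4 tumors and at most at 0.727 and 0.248 in the others. Without these tumors Hoxa2 to Hoxa5 stood at 1.74 to 1.86 times the trend, still past the limit, and Hoxa7 at 0.951 times.

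The posterior genes, too low to be tested, divided these tumors. Hoxa9 was at 2 counts in Hi 10 and 4 in Lo 9, but at 20 in Hi 7 and 14 in Lo 3, and had its highest count, 45, in Lo 1. Hoxa10 was at 1 count in Hi 10 and 0 in Lo 9, but at 32 in Hi 7, its highest, and 19 in Lo 3. In RPKM, Hi 7 and Lo 3 lay above the median of the other 16 tumors for both genes, at 0.087 and 0.044 against 0.011 for Hoxa9 and at 0.238 and 0.101 against 0.031 for Hoxa10. Hi 10, the highest tumor in Hoxa5, lay below that median for both. Lo 9 lay just above it for Hoxa9, at 0.013 RPKM, and below it for Hoxa10.

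**Figure D3:**
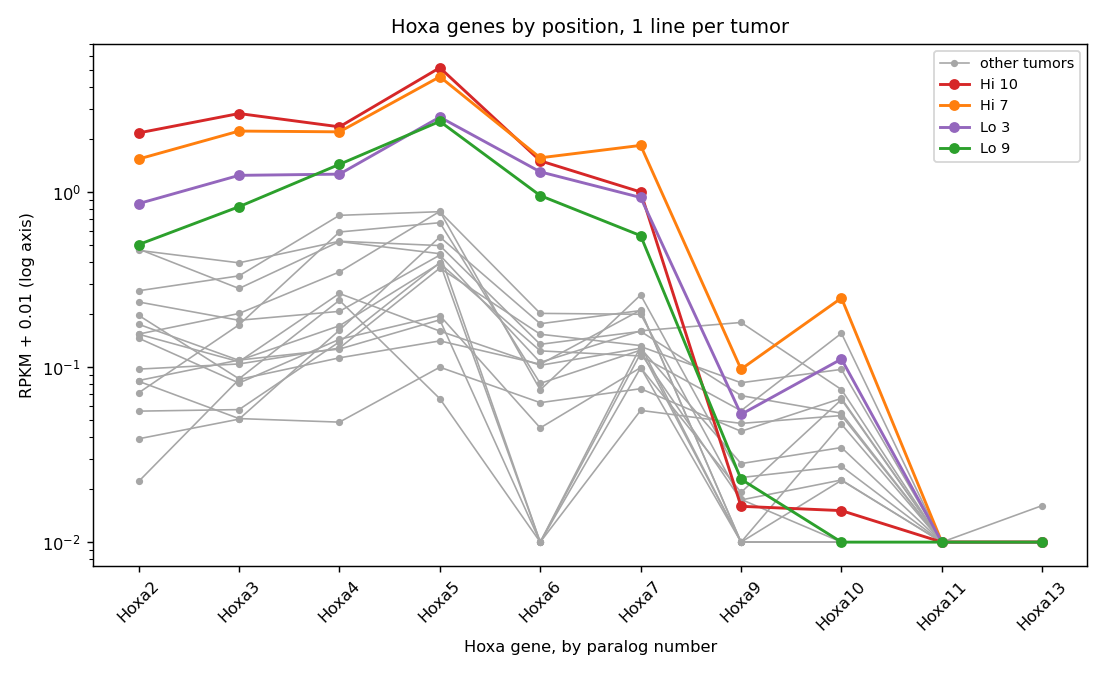
Level of 10 Hoxa genes in order of position, in RPKM plus a small offset on a log axis, with 1 line per tumor. The lines of Hi 10, Hi 7, Lo 3 and Lo 9 (coloured) run above those of the other 16 tumors (grey) from Hoxa2 to Hoxa7 and, apart from Hi 7 at Hoxa10, among them at Hoxa9 and Hoxa10.

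The spread of the Hoxb genes had another shape, in which 3 tumors were low. Hoxb2 was at 0.725 RPKM in Hi 6, 1.23 in Lo 9 and 0.959 in Lo 3, and between 2.46 and 8.13 RPKM in the other 17. Hoxb3 was at 0.761, 1.09 and 1.04 RPKM in these tumors and between 1.87 and 6.80 in the others. Hoxb4 was at 0.389 to 0.550 RPKM and between 1.16 and 6.63 in the others. At Hoxb5, Hi 6 and Lo 3 were the lowest of all tumors, at 0.035 and 0.050 RPKM, but on only 4 and 8 counts. The lowest of the 17, at 0.058 RPKM, also had 8 counts, and Lo 9 was at 0.103 RPKM. For Hoxb6 to Hoxb9 all 3 lay within the range of the others. Lo 3 and Lo 9 were thus high in Hoxa and low in Hoxb, whereas Hi 10 held the highest value of both Hoxa5 and Hoxb2 and Hi 7 was unremarkable in Hoxb2 at 4.82 RPKM. Without the 3 low tumors Hoxb4 stood at 1.62 times the trend, Hoxb3 at 1.46 and Hoxb2 at 1.37.

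**Figure D4:**
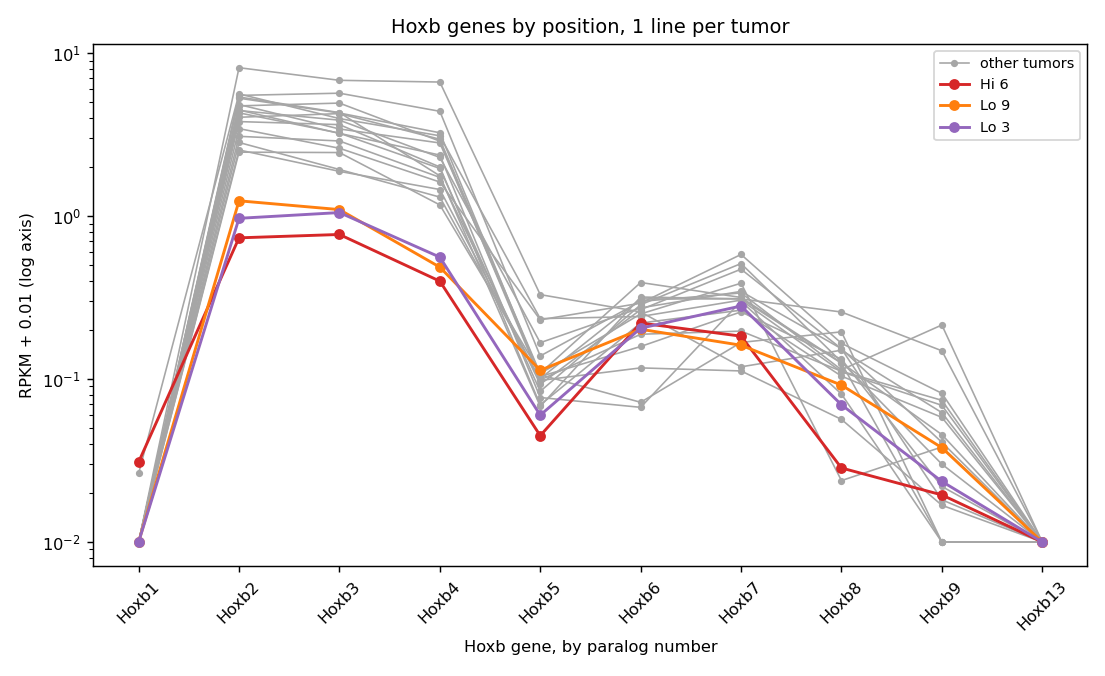
Level of the 10 Hoxb genes in order of position, in RPKM plus a small offset on a log axis, with 1 line per tumor. The coloured lines of Hi 6, Lo 9 and Lo 3 run below the other 17 (grey) at Hoxb2, Hoxb3 and Hoxb4. At Hoxb5, on few counts, those of Hi 6 and Lo 3 are lowest, and all 3 run among the others from Hoxb6 on.

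The leading gene of each cluster, that with the highest median RPKM, was then used as a covariate across all genes (edgeR, Benjamini-Hochberg adjustment over all genes tested). Hoxa5 was followed by 4 of 18 other Hox genes, all of them Hoxa genes and all upward, against 0.0741% of all genes. Per SD of Hoxa5, Hoxa3 rose by 1.65 on the log2 scale (SE 0.143, adjusted p = 5.61e-07) and Hoxa7 by 1.29 (SE 0.115, adjusted p = 6.80e-07). Hoxa4 rose by 1.33 and Hoxa2 by 1.24, the last with an adjusted p of 0.00404. The 14 Hox genes of other clusters tested lay between -0.27 and 0.23. Without the 4 tumors highest in Hoxa3 no Hox gene passed, at an adjusted p of 0.999996 for each of the 4 genes. Their changes were 1.11 for Hoxa3 (SE 0.324), 1.12 for Hoxa4 (SE 0.340), 0.67 for Hoxa7 (SE 0.221) and 0.54 for Hoxa2 (SE 0.455). In the other 16 tumors their log2 levels correlated with Hoxa5 at r of 0.57, 0.63, 0.70 and 0.21, in that order. With fewer tumors, the lost calls do not show that these genes moved apart. Leaving out the 2 tumors of most extreme Hoxa5 level, 3 of the 4 passed, all but Hoxa2.

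Genes other than Hox that followed Hoxa5 lay both inside and outside the cluster. Of 13 genes called and reported here, 9 lay within the span of the Hoxa cluster, of which 4 were the Hox genes, and 4 lay outside it. The 3 other than Hox with the smallest p were noncoding, Hoxaas3 (1.45, adjusted p = 7.88e-07), Hoxaas2 (1.57, adjusted p = 6.69e-06) and 5730596B20Rik (1.93, adjusted p = 8.55e-06). Hotairm1, a noncoding gene of the anterior end of the cluster, rose by 0.85 (adjusted p = 0.0136). The 4 genes outside the span were Mylk, a kinase of smooth muscle contraction (0.27), B630019K06Rik (1.73), Slfn3 (0.43) and the Wnt ligand Wnt9b (0.76), with adjusted p of 0.00643 to 0.0472. Exons of Hoxaas3 cover part of Hoxa3 and of Hoxa7, and those of Hoxaas2 and 5730596B20Rik part of Hoxa3. The strand setting of the counting is not given in the sources used here, so that reads of such pairs cannot be told apart. Hoxa5 and Hoxa6 overlap no other gene.

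Hoxb2 was followed by Hoxb3 and Hoxb4, 2 of 18, against 0.0265% of all genes. Hoxb3 rose by 0.76 per SD of Hoxb2 (SE 0.053, adjusted p = 6.55e-09) and Hoxb4 by 0.97 (SE 0.077, adjusted p = 5.92e-08). Hoxb5, their neighbour, had a change of 0.48 (SE 0.157, unadjusted p = 0.00594, adjusted p = 0.9995). At an unadjusted p under 0.05 there were 4 Hox genes, Hoxb3, Hoxb4, Hoxb5 and Hoxb8 (0.40), and 809 of 18882 genes. Without the 3 tumors lowest in Hoxb3 both calls stood, at adjusted p of 0.00487 for Hoxb3 and 0.00200 for Hoxb4. The other genes called were Hoxb3os and Gm11536, both within the Hoxb span and both rising, and B630019K06Rik on chromosome X, which fell by 1.67. The log2 level of B630019K06Rik correlated with that of Hoxb2 at only r = -0.42. Hoxb3os covers 52.9% of the exonic bases of Hoxb3 and 27.3% of those of Hoxb2, whereas Hoxb4 overlaps no other gene.

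**Figure D5:**
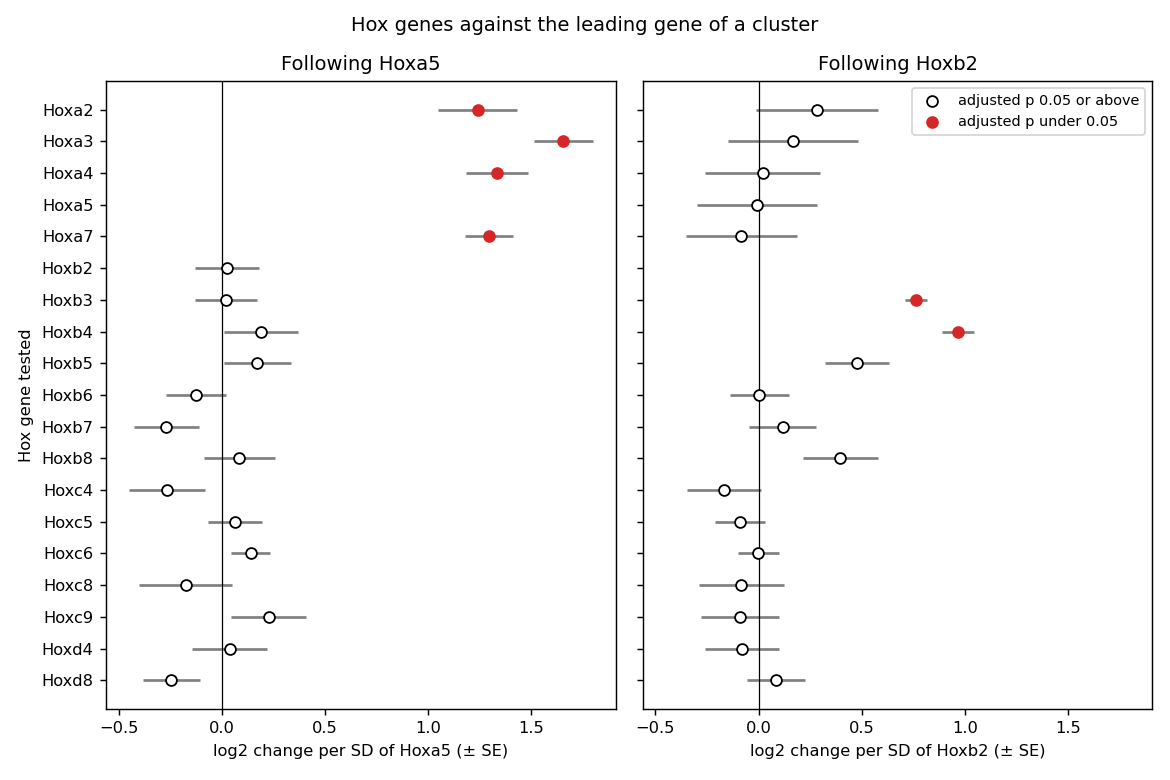
Change of each Hox gene tested per SD of Hoxa5 (left) or Hoxb2 (right) on the log2 scale, with the standard error over 20 tumors. Filled points passed an adjusted p of 0.05, and they are Hoxa2, Hoxa3, Hoxa4 and Hoxa7 on the left and Hoxb3 and Hoxb4 on the right.

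Hoxc6 and Hoxd8 were followed by no Hox gene. For Hoxc6 0 of 18 passed, against 0% of all genes, with 0 Hox genes and 998 of 18882 genes at an unadjusted p under 0.05. For Hoxd8 0 of 18 passed, against 0.0583% of all genes, with 3 Hox genes at an unadjusted p under 0.05. The genes that followed Hoxd8 were led by Btbd17 (1.89, adjusted p = 0.00640), B630019K06Rik (-1.38) and the matrix gene Sparc (0.31). None of the 11 lay in the Hoxd cluster. In that order, the log2 levels of Btbd17, B630019K06Rik and Sparc correlated with Hoxd8 at r of 0.46, -0.51 and 0.83. B630019K06Rik was called with Hoxa5, Hoxb2 and Hoxd8, rising with the first and falling with the others. The genes nearest to Hoxc6, Gm6085, Lin7a and Gm15535, had adjusted p of 0.684 to 0.859.

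The labels Lo and Hi were compared next, the only division the titles give. None of the 19 Hox genes passed an adjusted p of 0.05, against 0% of all genes, with 0 Hox genes and 1045 of 18883 genes at an unadjusted p under 0.05. DESeq2 called 0 Hox genes and 1 gene in all. The smallest adjusted p of a Hox gene was 0.993. Hoxb3 was at 11.4 ± 5.23 CPM in Lo (mean ± SD, n = 9) and 15.8 ± 6.17 in Hi (n = 11), a log2 difference of Hi over Lo of 0.47 (SE 0.283). Hoxa2 had the widest difference, 1.03 (SE 0.703), with 0.396 ± 0.50 CPM in Lo and 0.827 ± 1.12 in Hi. The median difference was 0.21 over the 19 Hox genes and -0.00099 over all genes. Of the 4 tumors high in Hoxa, 2 were Lo and 2 Hi.

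Cell type markers were set beside the Hox genes because the tumor pieces hold several cell types. A score, the mean z-score of the log2 CPM of a marker list, served as the covariate of each fit. Hoxd8 rose with the fibroblast score by 0.45 per SD (SE 0.113, adjusted p = 0.0333) as 1 of 19 Hox genes, against 2.04% of all genes. It also rose with the endothelial score by 0.49 (SE 0.110, adjusted p = 0.0290), again alone among the 19, against 1.06% of all genes. Lo 3, the tumor lowest in Hoxd8, was also lowest in both scores, at -1.88 and -1.72. Neither call held once the 2 tumors of most extreme score were left out, with changes of 0.31 and 0.36.

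Hoxa3 fell with the leukocyte score by 1.34 per SD (SE 0.321, adjusted p = 0.0314), 1 of 19 against 2.3% of all genes. The other 4 Hoxa genes tested had changes of -1.13 to -0.81 and adjusted p of 0.0547 to 0.0975. Hoxd8, which rose with the fibroblast and endothelial scores, also rose here, by 0.40 (SE 0.118), but did not pass (adjusted p = 0.0628). The 4 tumors high in Hoxa2 to Hoxa7 had leukocyte scores of -1.53 in Lo 3, -0.92 in Hi 10, -0.37 in Lo 9 and -0.24 in Hi 7, within or below the range of the other 16, -0.96 to 1.06. The call was lost with limma-trend, at a change of -1.06, and once the 2 tumors of most extreme score were left out, at -1.56. Its part in the level of Hoxa genes was not tested.

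No Hox gene passed with the other lists. For the luminal epithelial score the share of all genes was 1.67%, for the basal myoepithelial score 0.0212% and for the adipocyte score 0.09%. In each of these fits 2 Hox genes had an unadjusted p under 0.05 and limma-trend called 0. The nearest was Hoxc6, with a change of -0.27 with the luminal score and an adjusted p of 0.0993.

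The clusters lie on 4 chromosomes, whose dosage can differ between tumors. The dosage of a chromosome, the median log2 level of its genes relative to the other autosomes, ran from -0.05 to 0.23 for chromosome 2, from -0.03 to 0.05 for chromosome 6, from -0.07 to 0.03 for chromosome 11 and from -0.09 to 0.20 for chromosome 15. No Hox gene followed the dosage of its chromosome, 0 of 19, too few genes to be read against 11.8% of all autosomal genes. At an unadjusted p under 0.05 there were 0 Hox genes. For Hoxa and Hoxb genes the fit could show little, since the dosage of chromosomes 6 and 11 hardly varied (SD 0.020 and 0.023). The nearest was Hoxa7, with a change of 0.62 per SD and an adjusted p of 0.220. In the 4 tumors high in Hoxa, the dosage of chromosome 6 was -0.02 to 0.02.

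Known cofactors and chromatin regulators of Hox genes were variable about as often as all genes, 1 of 8 cofactors and 1 of 22 regulators against 7.21%. Of the 8 TALE cofactors, 5 were expressed, led by Pbx2 at a median of 14.4, Pknox1 at 2.28 and Meis3 at 2.13 RPKM. Meis1 alone was variable, at 2.04 times the trend, and was highest in Hi 7 at 1.45 RPKM. All 22 Polycomb and Trithorax regulators were expressed, with Wdr5 at 15.2, Suz12 at 13.5 and Kmt2d at 12.8 RPKM, and 1 was variable (Kmt2d, at 1.99 times the trend). Ezh2, the methyltransferase of Polycomb complex PRC2, ran only from 5.37 to 8.72 RPKM. None of these genes followed Hoxa5 or Hoxb2.

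Of 18 genes of retinoic acid signalling and the Cdx family, 13 were expressed. The receptors Rxrb, Rarg and Rxra had medians of 15.8, 14.1 and 11.6 RPKM. Variable were the receptor Rxrg, the retinoic acid producing enzyme Aldh1a3 and the binding protein Crabp1, at 2.08, 1.98 and 2.25 times the trend. Rxrg was highest in Hi 10 at 3.09 RPKM, and its change with Hoxa5 was 0.43 (adjusted p = 0.933). The Cdx genes and the other ParaHox genes, 6 in all, were not expressed, and none had more than 5 counts in a tumor.

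Among 16 noncoding genes of the Hox clusters, 3 were expressed and 4 tested. All 4 were variable, Hoxb3os at 2.56, Hotairm1 at 2.45, Hoxaas2 at 3.08 and Hoxaas3 at 2.95 times the trend. Hoxb3os and Hotairm1 were the highest by median, at 5.86 and 2.05 RPKM, followed by the microRNA gene Mir10a at 0.651. Hotair, of the Hoxc cluster, and Hottip, of the posterior Hoxa end, had no read in any tumor. Of 11 flanking genes, 7 were expressed and 0 of 8 tested were variable, too few to be read against 7.21% of all genes, with Skap2 at a median of 41.9, Hibadh at 34.3 and Calcoco1 at 28.1 RPKM. Evx1 and Evx2, homeobox genes beyond the posterior ends of Hoxa and Hoxd, had no read. None of the genes of these lists was called between Lo and Hi.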

How the data were processed

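RNA from 20 tumors was sequenced by the authors in paired-end reads from TruSeq mRNA libraries. The submitters' processing notes name TopHat2 2.0.12 and featureCounts 1.4.4, and the paper the MapRseq workflow and mm10, the C57BL/6 genome. The annotation release and strand setting are not given in the sources used here. The authors deposited raw counts of reads for each gene and tumor, without pooling, and a coding length per gene.

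The Hox genes, the gene and marker lists and the tests were chosen with earlier results of these data known. RPKM was computed from the counts, the listed length and the total count. CPM used edgeR's TMM factors, and log2 CPM a prior count of 2. edgeR 4.0.16 (R 4.3.3) filterByExpr kept 18883 genes. Lo against Hi, the scores, leading genes and dosage were tested with its quasi-likelihood test, Benjamini-Hochberg adjusted over all genes and called at 0.05. Dosage used genes of at least 5 CPM on average. The biological CV came from edgeR dispersions without shrinkage. DESeq2 1.42.0 and limma 3.58.1 gave alternatives. Overlaps came from GENCODE M21, whose gene starts and ends equalled those of the files for 37 of 38 Hox genes. Named were leading, expressed, variable and called Hox genes, those with a tumor at 10 times the median and at least 20 counts, the 3 genes with the smallest p for each leading gene, the 3 most abundant genes of each list and, chosen after their values were seen, the list genes called variable, Ezh2, Hotairm1, the genes following Hoxa5 outside its cluster, Evx1, Evx2, Hotair and Hottip. A Hox gene and a cofactor are not reported here. They stayed in every fit, and leading genes and counts of Hox genes are over the genes reported. Each tumor came from its own mouse. Reads carry no molecular identifiers, so the limit of 3 counts covers counting error only.

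On simulated counts with 200 changed genes among 18883, the test of Lo against Hi recovered 162 and called 6 others. The fit on Hoxa5 recovered 199 and called 17 others, and the rule for variable genes recovered 176 and called 51 others. The changed genes of the first 2 had the spread of the trend and a log2 change of about 1.00. Recovery of changes in genes more variable than the trend, such as the Hoxa genes, was not simulated.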

Additional observations from a re-analysis of the deposited data

Results flagged for a closer look

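Among the 19 Hox genes tested, the 9 Lo tumors were searched for a value set apart from the rest of its group by Dixon's criterion, for which chance gives about 1 in 20. Hoxb5 was at 0.678 CPM in Lo 4, compared with 0.151 to 0.313 CPM in the other Lo tumors. Hoxb6 was at 0.227 CPM in Lo 11, compared with 0.389 to 0.610 CPM in the other Lo tumors. Both genes were within 1.5 times the trend in their spread over all 20 tumors.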

How the results depend on the processing

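The count of 6 expressed Hox genes became 13 with the limit reached in any tumor, 2 with it reached in all tumors, 3 on log2 of the mean RPKM without a pseudocount and 19 by edgeR's filterByExpr. The count of 9 variable genes became 16 without a filter on low counts and ran from 8 to 9 when each tumor was left out in turn. Chosen after seeing the data, it was 7 without the 4 tumors highest in Hoxa3, where Hoxa7 fell to 0.951 times the trend, and 6 without the 3 tumors lowest in Hoxb3, where Hoxb2 and Hoxb3 fell to 1.37 and 1.46 times. The share of all genes expressed or variable under these alternatives is not given here. The changed counts are therefore not read as a result about Hox genes. The single call with the fibroblast score became 0 with the luminal score in the same fit, where Hoxd8 moved from 0.45 to 0.43, and 0 without the 2 tumors farthest from the median score. The same omission gave 0 for the endothelial and the leukocyte score, and limma-trend 0 for the latter. The 4 genes following Hoxa5 became 3 without the 2 farthest tumors, 3 with the fibroblast and luminal scores as further terms and 0 without the 4 tumors highest in Hoxa3, where fewer samples remain. The Hoxd8 difference between Lo and Hi turned from 0.08 to -0.021 with the ribosomal RNA share as a covariate, and the cause was not tested. Lo and Hi share 9 numbers in the titles, and the meaning of these numbers is not given in the sources used here. Same-numbered tumors deviated together in only 3 of 9 pairs (r from -0.42 to 0.21), which cannot show whether the numbers link tumors. With the replicate block, 0 Hox genes were called between Lo and Hi, as without it, and the Hoxa5 difference turned from 0.44 to -0.157, neither past the threshold. Of 285 values for single genes under alternatives, 261 kept direction and side of the threshold, 22 lost the call and 2 reversed. The count filter left 19 Hox genes out of the tests, and at the depth of the lowest of them differences would be hard to detect. Hoxa6, also left out, had 46 to 78 counts in the 4 tumors highest in Hoxa3 and 0 to 8 in the others.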
